A study of Bos taurus with 33 samples.

Results

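Steroid hormones of the follicle are made from cholesterol in a short chain of steps, and the transcripts of 10 proteins of that chain are described here across bovine oocytes and the cumulus cells (CC) that surround them. The 10 genes were taken by symbol from the deposited table of oocyte pools and the deposited table of CC pools, and their rows were joined by Ensembl identifier. A row was found in both tables for 8 of the 10, namely STAR, SCARB1, CYP11A1, FDX1, FDXR, CYP17A1, HSD17B1 and CYP19A1, among 17543 transcripts listed in either table and 14980 listed in both. HSD3B1 and HSD3B2 were not found by symbol. A row named HSD3B in the oocyte table (ENSBTAG00000006769), which carries no symbol in the CC table, is given beside the members because RefSeq lists HSD3B as a synonym of HSD3B1. This row was added after its values had been seen and is not counted among the 10.

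Each library pooled 4 oocytes or the CC that had enclosed 4 oocytes, recovered by transvaginal aspiration from suckled postpartum Hereford-Angus crossbred cows. All cows were given gonadotropin releasing hormone (GnRH) on day -9 and prostaglandin F2 alpha on day -2. Cows without estrus received GnRH again on day 0 and formed the small (largest follicle up to 11.7 mm) and large (from 12.7 mm) follicle classifications, whereas cows that came into estrus formed the spontaneous classification (11.7 to 14 mm), without the second GnRH. There were 6 small, 6 large and 4 spontaneous oocyte pools and 6, 6 and 5 CC pools, collected about 20 h (by one label) or 23 h (by another) after the last GnRH or estrus.

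In the ovary the chain is divided between cells. SCARB1 takes up cholesteryl esters from high-density lipoprotein, STAR carries cholesterol to the inner mitochondrial membrane, and CYP11A1 cuts its side chain to give pregnenolone with electrons that FDXR passes to FDX1 and FDX1 passes on. 3-beta-hydroxysteroid dehydrogenase then makes progesterone, CYP17A1 makes androgens mainly in theca cells, and CYP19A1 (aromatase) with HSD17B1 makes estradiol in granulosa cells. The surge of luteinizing hormone turns this output from estradiol towards progesterone, and the pools were taken after the surge.

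The measured values are read counts scaled to 1000000 reads on genes (CPM), from 7664375 to 17934916 reads in oocyte pools and 1911600 to 5772431 in CC pools. A count of 0 therefore still allows up to 0.167 to 0.391 CPM in an oocyte pool and 0.52 to 1.57 CPM in a CC pool (3 reads), limits that cover counting error only, because reads of amplified cDNA are not independent molecules. In bulk RNA, fewer cells of a type and less RNA per cell cannot be told apart. All 16 genes of a list of oocyte markers were retained in the oocyte pools (summed 10095 to 14130 CPM), against 2.09 to 13.7 CPM in CC pools, and the list of cumulus and granulosa markers summed to 14804 to 36345 CPM in CC pools and 608 to 4600 CPM in oocyte pools. In the oocyte pools the median of that sum was 5.74% of the CC median. The sum is dominated by VCAN (median 15808 CPM in CC and 863 CPM in oocyte pools). By median HAS2 (186 against 50.5 CPM) and GREM1 (5.18 against 1.14 CPM) were higher in oocyte pools, and the rest of the list was higher in CC. The sum is therefore no measure of carry-over, and the part of cumulus RNA in the members' oocyte values was not tested. Spontaneous CC replicate 2 stood apart, with COL1A2, a collagen chain, at 2117 CPM against at most 40.8 CPM in the other CC pools, and its theca and stroma list summed to 4376 CPM against at most 1789 CPM. Small CC replicate 4 also stood apart, with 109 transcripts more than 4 times as high as in the next CC pool, led by KRT5, a keratin of epithelia. By the same measure large CC replicate 6 had 29 such transcripts, spontaneous replicate 2 had 25, and every other CC pool had at most 18. Small oocyte replicate 3 is the library that the study treated as an outlier, so calls that involve small oocyte pools had to hold with and without it.

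STAR (ENSBTAG00000033345) ranged from 258 CPM to 440 CPM around a median of 391 CPM in small oocyte pools, and from 280 CPM to 395 CPM around 354 CPM in large oocyte pools. The 4 spontaneous oocyte pools held 389, 464, 386 and 398 CPM. Every oocyte pool was thus rich in STAR and the 3 classifications overlapped. In CC, STAR was 0.52 CPM at the lowest, 3.37 CPM at the median and 12.6 CPM at the highest in small pools, and 0.852, 9.03 and 12.3 CPM in large pools. The spontaneous CC pools held 5.64, 315, 10.2, 5.63 and 3.75 CPM, so a single pool, replicate 2, reached the level of the oocyte pools and the other 16 stayed at or below 12.6 CPM.

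STAR varied less over the oocyte pools than most retained transcripts. Those were not matched to STAR for level, so whether STAR is steady for its level was not tested. Its coefficient of variation over the 16 oocyte pools was 15.3% around a mean of 370 ± 56.5 CPM (SD, n = 16), against a median of 45.9% over the 10076 retained transcripts, and 4.11% of these varied less. Among CC pools the coefficient was 307%, and it rested on spontaneous replicate 2. Without that pool the spontaneous CC mean was 6.30 ± 2.73 CPM (SD, n = 4), and every oocyte pool was then above every remaining CC pool. With all CC pools the cell types overlapped for STAR. The ratio of the oocyte mean to the CC mean was 15.1 with it and 59.1 without it. The CC median of STAR was 5.64 CPM. The tables of oocyte and CC pools were scaled separately, so the cell types are set side by side without a test. Among the 11431 transcripts retained in either cell type and listed in both tables, every oocyte pool was above every CC pool for 22.9%, and every CC pool above every oocyte pool for 13.4%. These shares use all CC pools. They were not counted without spontaneous replicate 2, so they are no background for STAR without that pool.

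ASH2L, taken as a neighbour of STAR, does not overlap it in RefSeq, and no other neighbour was looked at. ASH2L was likewise higher in oocytes, with 114 ± 27.0 CPM (SD, n = 16) against 13.0 ± 4.64 CPM (SD, n = 17) in CC. The library method kept no strand, and no gene of the reference table overlapped a member except a transfer RNA gene at CYP19A1.

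**Figure D1:**
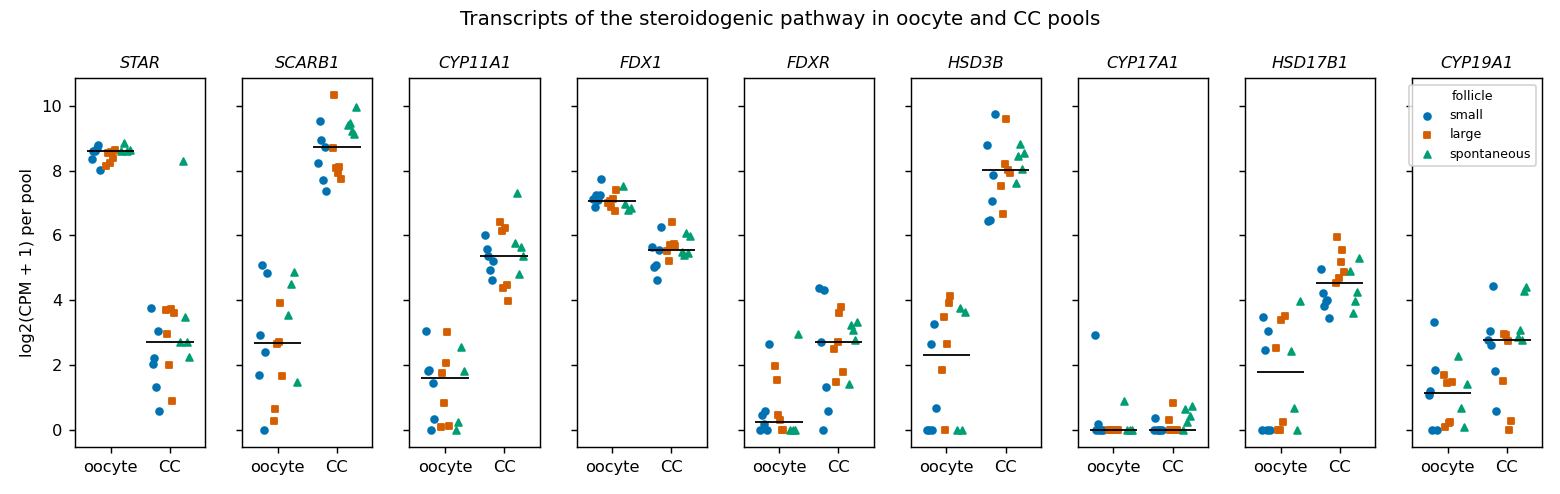
Levels of 8 genes of the steroidogenic chain and of the row named HSD3B, as log2(CPM + 1) on the vertical axis, in 16 oocyte pools and 17 CC pools. Each point is a pool, marked by follicle classification, and the line is the median of the cell type. STAR and FDX1 lie higher in oocytes, SCARB1, CYP11A1 and HSD3B lie higher in CC, and CYP17A1 lies near 0 in both.

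FDX1 (ENSBTAG00000011793), the ferredoxin that hands electrons to CYP11A1, was the other member higher in oocytes. It ranged from 115 to 214 CPM (median 145 CPM) in small and from 107 to 167 CPM (median 130 CPM) in large oocyte pools, and was 182, 124, 110 and 115 CPM in the spontaneous ones. In CC it ranged from 23.7 to 76.2 CPM (median 39.5 CPM) in small and from 36.3 to 84.1 CPM (median 50.5 CPM) in large pools, and was 43.9, 41.4, 67.2, 43.0 and 62.8 CPM in spontaneous pools. The lowest oocyte pool was above the highest CC pool, and the ratio of means was 2.83. FDX1 is also known to serve other electron transfers in mitochondria of many cell types.

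Its reductase FDXR (ENSBTAG00000006525), which takes the electrons from NADPH, did not follow FDX1. FDXR had no read in 7 of 16 oocyte pools, a median of 0.187 CPM and a highest value of 6.80 CPM, and it was not retained there. In CC it ranged from 0 to 19.9 CPM around a median of 5.60 CPM, and the cell types overlapped. Over the oocyte pools FDXR was lower where the summed cumulus markers were higher (log2(CPM + 1), Pearson r = -0.67, permutation p = 0.00394, adjusted p = 0.0315 over 8 genes, and Spearman rho = -0.68, permutation p = 0.00476, adjusted p = 0.0381, n = 16). Pearson r was -0.68 without the 2 pools farthest from the median of the sum. However, 9 of 16 pools had a read of FDXR at all and 2 reached 5 CPM, so the relation rests on few pools. As the sum is no measure of carry-over, what the relation reflects was not tested.

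CYP11A1 (ENSBTAG00000006934) and SCARB1 (ENSBTAG00000014269) had the opposite distribution from STAR. CYP11A1, the side-chain cleavage enzyme, ranged from 23.7 to 63.5 CPM (median 38.1 CPM) in small and from 14.9 to 84.4 CPM (median 45.4 CPM) in large CC pools. In spontaneous CC pools it was 53.5, 156, 27.2, 49.2 and 39.9 CPM. The highest value, 156 CPM, came from the same pool that held 315 CPM of STAR, and the mean of the other 4 spontaneous pools was 42.5 ± 11.6 CPM (SD). In oocyte pools CYP11A1 was at 0 to 7.38 CPM with a median of 2.06 CPM, below every CC pool. That median is 5.12% of the CC median, where HSD17B1 was at 11.2%, CYP19A1 at 21.2% and FDXR at 3.33%.

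SCARB1, the lipoprotein receptor, ranged from 165 to 743 CPM (median 362 CPM) in small CC pools and from 213 to 1279.5 CPM (median 271 CPM) in large CC pools. The spontaneous CC pools held 682, 711, 599, 558 and 1002 CPM, all above 5 of the 6 small and 5 of the 6 large pools. In oocyte pools it ranged from 0 to 33.3 CPM with a median of 5.47 CPM, 1.30% of the CC median, and again no oocyte pool reached a CC pool. Over the 16 oocyte pools SCARB1 was higher where the cumulus marker sum was higher (r = 0.53, permutation p = 0.0365, adjusted p = 0.146, and rho = 0.59, permutation p = 0.0197, adjusted p = 0.0787, over the same 8 genes). This relation did not pass the correction.

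Of the 8 members with rows, 1 (FDX1) was higher in every oocyte pool than in any CC pool and 2 (CYP11A1 and SCARB1) were higher in every CC pool, beside the 22.9% and 13.4% of all transcripts given above. The row named HSD3B, the enzyme that makes progesterone from pregnenolone, lay with the latter. It ranged from 85.6 to 855 CPM (median 183 CPM) in small and from 100 to 772 CPM (median 252 CPM) in large CC pools, and was 196, 348, 451, 263 and 368 CPM in spontaneous ones. In oocyte pools it lay between 0 and 16.7 CPM with a median of 3.93 CPM.

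**Figure D2:**
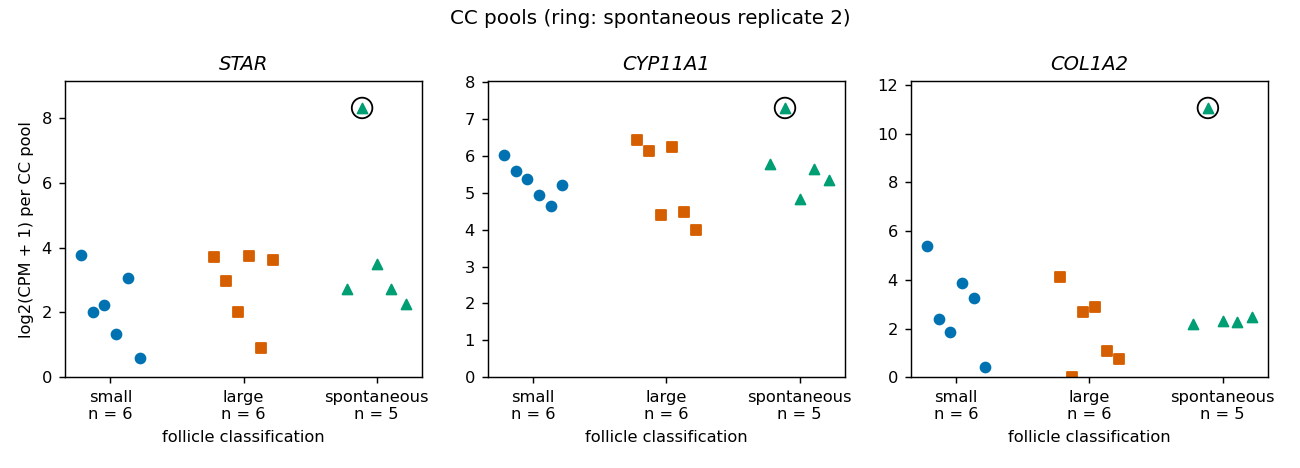
STAR, CYP11A1 and COL1A2 in the 17 CC pools by follicle classification, as log2(CPM + 1) on the vertical axis, with each point a pool and a ring around spontaneous replicate 2. That pool is highest for all 3 genes, at 315, 156 and 2117 CPM.

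Spontaneous CC replicate 2 was looked at further because it sets the STAR value of its group. STAR was the fifth of its transcripts when ranked by the log2 ratio to the next CC pool (4.54), behind COL1A2 (5.66), PCSK1, a prohormone convertase (5.64), SFRP2, a secreted Wnt antagonist (5.23), and a row without a symbol. Of the 14 theca and stroma markers with a row 6 were highest there (ACTA2, COL1A2, COL3A1, LUM, PDGFRA and PDGFRB), whereas INSL3, a peptide hormone of theca cells, was 176 CPM against 108 to 1162 CPM over all CC pools. CYP17A1, the defining steroidogenic enzyme of theca, was 0.585 CPM there, which is 3 reads. HSD3B (348 CPM), SCARB1 (711 CPM) and FDX1 (41.4 CPM) lay within the range of the other 16 pools. Whether cells of another type account for STAR in that pool was not tested.

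Of the enzymes that lead to androgens and estradiol, CYP17A1 (ENSBTAG00000014335) had no read in 13 of 16 oocyte pools and in 10 of 17 CC pools. Its highest CC value was 0.781 CPM (4 reads), which is close to the limit that a count of 0 allows. A single oocyte pool, small replicate 1, held 6.57 CPM (81 reads), and CYP11A1 was also highest in that oocyte pool (7.38 CPM). CYP17A1 was not retained in either cell type.

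CYP19A1 (ENSBTAG00000014890), the aromatase, ranged from 0.52 to 21.0 CPM (median 5.53 CPM) in small and from 0 to 6.76 CPM (median 3.76 CPM) in large CC pools. The spontaneous CC pools held 6.27, 7.41, 5.81, 18.7 and 20.1 CPM. The one high small pool, at 21.0 CPM, was replicate 4, and the next small pool was at 7.39 CPM. In oocyte pools CYP19A1 was 0 to 9.16 CPM with a median of 1.23 CPM, and the cell types overlapped.

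HSD17B1 (ENSBTAG00000047604), which reduces estrone to estradiol, ranged from 10.05 to 30.4 CPM (median 14.9 CPM) in small and from 22.2 to 60.5 CPM (median 31.9 CPM) in large CC pools, and was 28.8, 11.3, 14.9, 18.0 and 38.6 CPM in spontaneous CC pools. In 6 of 16 oocyte pools it had no read, and its highest oocyte value was 14.9 CPM. It was retained in oocytes, where 5 pools reached 5 CPM. The cell types overlapped, as the highest oocyte pool was above the lowest CC pool (10.05 CPM).

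The follicle classifications were compared to ask whether the route to the surge and the size of the follicle went with a different steroidogenic transcript profile. A transcript was retained when 4 or more oocyte pools, or 5 or more CC pools, reached 5 CPM. Retained transcripts were compared with limma on log2(CPM + 1), two-sided, and called at a nominal p of 0.01 or less. Of the 10 members 4 were retained in oocytes (STAR, SCARB1, FDX1 and HSD17B1) and 7 in CC (these and CYP11A1, CYP19A1 and FDXR). A log2 fold change is the second classification minus the first, and on this scale it understates the change of a low transcript.

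In oocyte pools none of the 4 was called in any comparison by limma, where none had a nominal p under 0.05, nor by edgeR or DESeq2. The share called over all 10076 transcripts was 0.655% for small vs large, 0.774% for small vs spontaneous and 0.943% for large vs spontaneous. STAR differed by -0.10 ± 0.15 (SE) from small to large, by 0.16 ± 0.17 from small to spontaneous and by 0.26 ± 0.15 from large to spontaneous (exact permutation p = 0.433, 0.352 and 0.0476 for the mean CPM). Its group means were 370 ± 66.7 CPM (SD, n = 6), 344 ± 47.5 CPM (n = 6) and 409 ± 36.8 CPM (n = 4). The lowest p belonged to SCARB1, at 4.66 ± 5.13 CPM in large and 15.6 ± 11.7 CPM in spontaneous oocyte pools (log2 fold change 1.62 ± 0.79, adjusted p = 0.968). That comparison passed the threshold, at 2.32, when spontaneous replicate 4 was left out. The cumulus marker sum was 765 CPM in that replicate and 1335 to 3147 CPM in the other spontaneous pools, and its part in the difference was not tested.

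In CC pools 1 of 7 members was called in each comparison, a different one each time and each at a high adjusted p. Over all 9712 transcripts the share called was 0.813% for small vs large, 2.38% for small vs spontaneous and 1.66% for large vs spontaneous. The median log2 fold change of the 7 members was 0.34, 0.54 and 0.50 in these comparisons, beside 0.045, 0.16 and 0.11 over all transcripts. The last 2 medians of all transcripts came to 0.011 and 0.014 with median-of-ratios scaling, so part of the differences from spontaneous CC depends on the scaling. Of the 7 members 5, 7 and 5 were above 0, and the share of all transcripts above 0 was not counted. FDXR was among them each time, but it was below 0 with edgeR and DESeq2.

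HSD17B1 was higher in CC from large than from small follicles by the main test. In that comparison 79 of 9712 transcripts (0.813%) were called, no more than a nominal p of 0.01 gives when nothing differs. It was 16.9 ± 7.09 CPM (SD, n = 6) in small and 36.2 ± 14.6 CPM (n = 6) in large pools, with a log2 fold change of 1.05 ± 0.30 (SE, adjusted p = 0.999). The exact permutation test of the mean CPM gave p = 0.0108, where the smallest possible is 0.00216. Of the small pools 5 were below every large pool and 3 large pools were above every small pool, and small replicate 1 alone, at 30.4 CPM, entered the large range. The call held in all 12 fits with 1 pool left out (0.89 to 1.23) and in all 10 other alternatives (0.96 to 1.095). These fits reuse the same pools, and the adjusted p stayed at 0.55 or above throughout. From large to spontaneous CC, HSD17B1 differed by -0.72 ± 0.32 (adjusted p = 0.680), with a mean of 22.3 ± 11.2 CPM (n = 5) in spontaneous pools. That difference was not called with all pools and passed at -0.94 without spontaneous replicate 5, which held 38.6 CPM.

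SCARB1 was higher in CC from spontaneous than from small follicles by the main test. The means were 388 ± 213 CPM (SD, n = 6) and 711 ± 174 CPM (n = 5), with a log2 fold change of 1.02 ± 0.31 (adjusted p = 0.363, exact permutation p = 0.0281). This call was lost under 7 of 10 alternatives. The fold change was 0.86 with median-of-ratios scaling (not called) and 0.64 to 0.65 in the count tests of edgeR and DESeq2 (not called). Without small replicate 4 it was 0.88 and without spontaneous replicate 5 it was 0.89, neither of them called. Against large CC pools, at 449 ± 413 CPM, the log2 fold change was 0.96 ± 0.35 (adjusted p = 0.583). It was 1.33 and called when large replicate 2 was left out, the pool at 1279.5 CPM.

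CYP19A1 was higher in CC from spontaneous than from large follicles by the main test, with means of 11.6 ± 7.10 CPM (SD, n = 5) and 3.52 ± 3.18 CPM (n = 6). The log2 fold change was 1.74 ± 0.58 (adjusted p = 0.567, exact permutation p = 0.0216). Of the large pools 4 were below every spontaneous pool, and large replicate 5 had no read, which allows up to 0.852 CPM. The call was lost under 9 of 10 alternatives, among them a pseudocount of 0.1 that moved the fold change to 2.66. It was also lost without large replicate 1, 5 or 6 and without spontaneous replicate 2, 4 or 5, and over the 11 fits without 1 pool the fold change ran from 1.39 to 1.99. From small to spontaneous the difference was 0.92 ± 0.55 (adjusted p = 0.682).

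The other members did not pass in CC. STAR differed by 1.73 ± 0.86 (adjusted p = 0.597) from small to spontaneous and by 1.08 ± 0.86 (adjusted p = 0.7995) from large to spontaneous, and the latter was -0.024 without spontaneous replicate 2. In edgeR's quasi-likelihood test on the recovered reads STAR was called in both, at 3.74 and 3.05, with that pool in the fit. CYP11A1 differed by at most 0.50 ± 0.48 (exact permutation p = 0.561), FDX1 by at most 0.34 ± 0.27 (adjusted p = 0.999) and FDXR by at most 0.54 ± 0.72 (adjusted p = 0.877). HSD3B differed by 0.26 ± 0.50, 0.56 ± 0.47 and 0.30 ± 0.36 in the 3 comparisons (adjusted p = 0.999, 0.791 and 0.872). Its spread within a classification, from 85.6 to 855 CPM in small pools, was wider than any difference between group means, which were 306, 309 and 325 CPM.

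**Figure D3:**
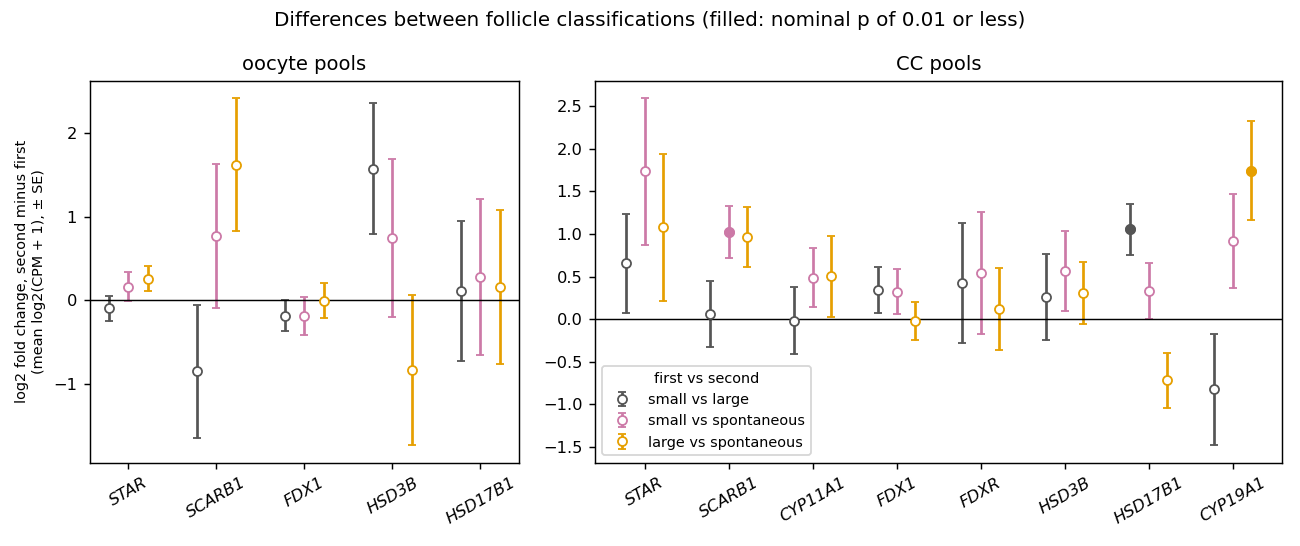
Log2 fold changes (second classification minus first, mean log2(CPM + 1), with SE) of the retained members and HSD3B in oocyte pools (left) and CC pools (right). Filled points have a nominal p of 0.01 or less, and these are HSD17B1 in small vs large, SCARB1 in small vs spontaneous and CYP19A1 in large vs spontaneous CC pools.

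**Figure D4:**
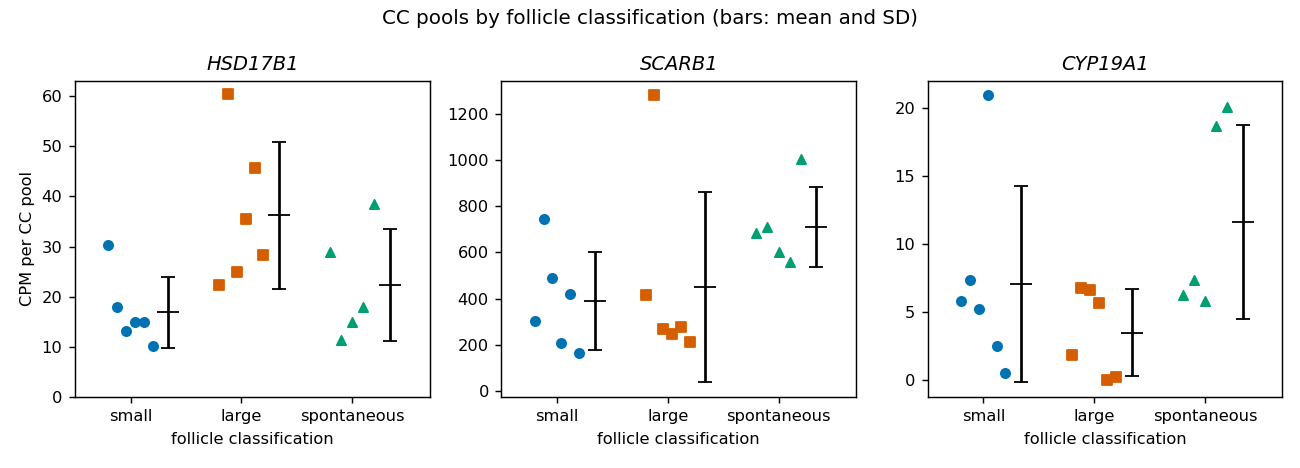
CPM of HSD17B1, SCARB1 and CYP19A1 in each CC pool by follicle classification, with the mean and SD of 6 small, 6 large and 5 spontaneous pools at the right of each group. The mean of HSD17B1 is highest in large pools and that of SCARB1 in spontaneous pools, with large replicate 2 at 1279.5 CPM, and the spread of CYP19A1 is wide in small and spontaneous pools.

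The members were also set against each other across the 17 CC pools. None of the 21 pairs among the 7 retained members passed a Benjamini-Hochberg adjusted p of 0.05 by permutation of log2(CPM + 1), and 2 had an unadjusted p under 0.05. The closest pair was STAR with CYP11A1 (r = 0.63, permutation p = 0.00703, adjusted p = 0.148, and rho = 0.54, permutation p = 0.0269, adjusted p = 0.402). Without spontaneous replicate 2 it was 0.35, so the relation rested on that pool, and without the 2 pools farthest from the median of STAR (that pool and small replicate 6) it was 0.39 (n = 15). It was 0.35 within small and 0.51 within large pools, and it passed at r = 0.76 (adjusted p = 0.0172) when large replicate 6 was left out. The next pair was SCARB1 with CYP19A1 (r = 0.49, permutation p = 0.0478, adjusted p = 0.502, and rho = 0.48, permutation p = 0.0508, adjusted p = 0.402), which fell to 0.36 without large replicates 5 and 6. FDX1 and FDXR, redox partners, had r = 0.03 (permutation p = 0.925, adjusted p = 0.953, and rho = 0.16).

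The retained transcripts most like each member over the 17 CC pools are given as a description, since the pools share a classification and every CPM of a pool shares a denominator. HSD3B was the transcript most like FDX1, with r = 0.87 and rho = 0.83 over all pools, 0.88 within small and 0.99 within large pools, followed by SUCLA2 (0.87), a subunit of a succinyl-CoA synthetase, and ANKRD50 (0.87). Small replicate 6 and large replicate 4 held the highest values of both FDX1 and HSD3B in their groups. For STAR the closest was COL1A2 (0.80), which fell to 0.37 without spontaneous replicate 2, whereas WDR61 was 0.76 with it and 0.85 without it. The closest to CYP11A1 were C9orf16 (0.86), IFT27 (0.83) and WDR46 (0.80), and those closest to SCARB1 were CRELD2 (0.90), H2AFZ (0.85) and PCOLCE2 (0.82). For HSD17B1 they were KMT2E (0.82), KDM6B (0.80) and MIF (0.78), for CYP19A1 BAD (0.85), ADSL (0.84) and AP2S1 (0.84), and for FDXR ARPC1A (0.85), FKBP15 (0.85) and ZFP57 (0.83).

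Other genes of cholesterol handling and steroid metabolism were read from 5 lists, of which 63 genes were retained in oocytes and 79 in CC. The genes named below were picked for a limma p of 0.01 or less in some comparison. Their exact permutation p-values and the overlap of their pools come from the same values, so they are not separate evidence. How many of all CC transcripts show no overlap between classifications was not counted. In oocytes none of the 63 was called in any comparison by limma, where 2, 1 and 2 had an unadjusted p under 0.05 in the 3 comparisons. The edgeR tests and DESeq2 called 2, 1 and 1. SOAT1, which esterifies cholesterol for storage, and CD36, a scavenger receptor, passed the nominal threshold for small vs large with all pools, both lower in large, and missed it at 0.0107 and 0.0108 without small replicate 3. In CC 2 of 79 were called for small vs large, 1 in each direction. The quasi-likelihood and likelihood ratio tests of edgeR and DESeq2 called 1, 3 and 3 there. Between small and spontaneous CC they called 3, 4 and 4, and between large and spontaneous CC 4, 4 and 5. Over all transcripts limma called 0.813%, 2.38% and 1.66% in the 3 comparisons. By limma 7 of 79 were called in spontaneous CC against small and 6 of 79 against large follicles, all higher in spontaneous CC. The lists were chosen with earlier results of these data known. Their counts, here and by list below, are therefore no test of an excess over the shares of all transcripts. Of the calls over all transcripts 221 of 231 and 141 of 161 had that direction, which became 78 of 126 and 62 of 116 under median-of-ratios scaling. For small vs large CC 67 of 79 calls were higher in large, which became 44 of 70 with that scaling and 30 of 66 without mitochondrially encoded genes.

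In the list of cholesterol supply from lipoprotein and ester, 4 of 15 retained genes were called against small and 3 of 15 against large follicles. SOAT1 was 251 ± 34.8 CPM (SD, n = 5) in spontaneous CC, 152 ± 49.5 CPM (n = 6) in small and 144 ± 30.7 CPM (n = 6) in large CC. Its log2 fold changes were 0.77 ± 0.21 (adjusted p = 0.308) and 0.82 ± 0.17 (adjusted p = 0.313). Every spontaneous pool was above every large pool, for which no share over all transcripts was counted. Both calls held with median-of-ratios scaling and with each of 11 pools left out. LRP8, a receptor for apolipoprotein E and reelin, rose by 1.23 ± 0.35 (exact permutation p = 0.0152) and, by limma alone, by 1.497 ± 0.497 (exact permutation p = 0.180, with large pools from 8.81 to 137 CPM). ABCA1, which exports cholesterol out of the cell, rose by 1.23 ± 0.42 (by limma, exact permutation p = 0.0519) and 1.85 ± 0.63 (exact permutation p = 0.0108). APOA1, the main protein of high-density lipoprotein, rose against small follicles by 1.75 ± 0.51 (exact permutation p = 0.0195). Against large follicles APOA1 differed by 1.27 ± 0.47, which did not pass. The calls of LRP8 and ABCA1 were lost with median-of-ratios scaling. Of the 11 fits without 1 pool, the call of LRP8 held in 10 against small and 3 against large follicles, that of ABCA1 in 3 and 5, and that of APOA1 against small follicles in 9. SOAT1 is known for storing and ABCA1 for exporting cholesterol.

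Among the other dehydrogenases, reductases and cytochromes 2 of 17 were called against each group. HSD17B12, which acts on estrone and in the elongation of fatty acids, was 281 ± 37.6 CPM in spontaneous CC against 178 ± 21.3 CPM in small and 206 ± 20.3 CPM in large CC (log2 fold changes 0.65 ± 0.15 and 0.44 ± 0.14, exact permutation p = 0.00216 in both, the smallest possible). Every spontaneous pool (240 to 330 CPM) was above every small pool (156 to 212 CPM) and every large pool (180 to 228 CPM). SRD5A3, a reductase best known for making dolichol for protein glycosylation, was 10.5 ± 2.46 CPM against 4.12 ± 2.07 and 4.14 ± 1.88 CPM, again without overlap. Both genes were picked for a low p, and the share of all CC transcripts without such overlap was not counted. With median-of-ratios scaling the calls that remained in these 2 genes were HSD17B12 against small (0.49) and SRD5A3 against large follicles (1.13). These calls held in all 11 fits without 1 pool, whereas those of HSD17B12 against large and SRD5A3 against small follicles held in 7 of 11 each.

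Of the remaining lists, NPC1, which moves cholesterol out of lysosomes, rose from 35.9 ± 5.02 CPM in small to 55.4 ± 12.7 CPM in spontaneous CC (0.60 ± 0.20, exact permutation p = 0.00433). STARD5, a cytosolic cholesterol carrier related to STAR, fell by 1.29 ± 0.45 on the log2 scale from small to large CC (7.52 ± 1.56 to 2.995 ± 2.09 CPM, exact permutation p = 0.00433). H6PD, which makes NADPH in the endoplasmic reticulum, rose from 9.54 ± 3.72 to 21.6 ± 10.8 CPM in the same comparison (1.02 ± 0.35, exact permutation p = 0.0260). INHA, the inhibin alpha subunit and itself also in the cumulus marker list, rose from 1786 ± 886 CPM in large to 3243 ± 1214 CPM in spontaneous CC (0.89 ± 0.29, exact permutation p = 0.0476). The calls of NPC1, H6PD and INHA were lost with median-of-ratios scaling. The call of STARD5 held in 2 and that of H6PD in 5 of 12 fits without 1 pool, and those of NPC1 and INHA held in 4 of 11 each. Without spontaneous replicate 2 the number of list genes called was 3 in place of 7 against small and 4 in place of 6 against large follicles.

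**Figure D5:**
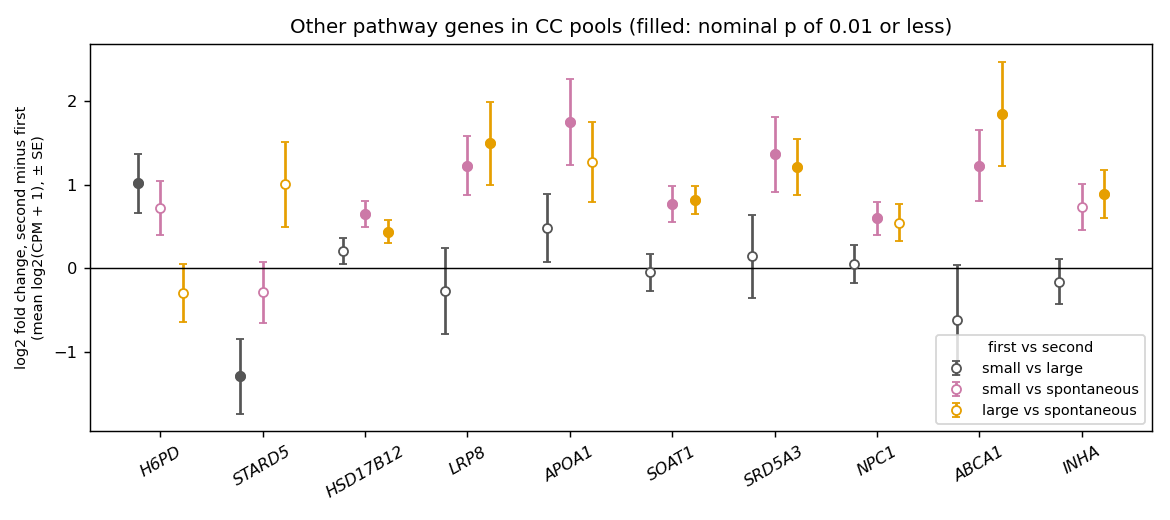
Log2 fold changes (second classification minus first, with SE) in CC pools of the 10 list genes called in any comparison. Filled points have a nominal p of 0.01 or less, and the points of both comparisons with spontaneous pools lie above 0 for 8 of the genes.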

How the data were processed

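The deposited values are CPM, which the authors made by trimming reads (fqtrim), aligning them with Hisat2 (UMD3.1) and counting them over Ensembl genes (featureCounts), in 1 table for 16 oocyte pools and 1 for 17 CC pools. The CPM gave back whole reads (100% of values within 0.1 of a whole number). Transcripts that reached 5 CPM in 4 or more oocyte pools, or in 5 or more CC pools, were tested with limma 3.58.1 (R 4.3.3, mean-variance trend, log2(CPM + 1), 2 classifications a fit, no covariate), checked first on simulated data, and members also with an exact permutation test. edgeR 4.0.16 and DESeq2 1.42.0, which the authors used, served as alternatives on those reads. Calls were at a nominal p of 0.01, with Benjamini-Hochberg adjusted p-values beside them. The study used that threshold too, but required it in both edgeR and DESeq2, whereas a call here rests on limma alone. Correlations used 100000 resamples (Python 3.11.15, numpy 2.4.6).

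All members were named in every group, as were list genes called in any comparison, and for each member the 3 transcripts most like it. Members and lists were chosen with earlier results of these data known. Further alternatives changed the pseudocount (0.1), the filter (none, or a mean of 1 CPM or more), the scaling (median-of-ratios, or CPM without 12 mitochondrially encoded genes) and the model (all classifications together, or a replicate block), or left out each pool. Gene lengths of that build were not used here, so levels of different genes are not compared.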

Additional observations from a re-analysis of the deposited data

Results flagged for a closer look

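Dixon's ratio at the 95% level was taken in 45 groups of 4 to 6 pools of 9 genes. In 13 of them a pool's gap to the next was large for the range of its group. A group was examined if any pool reached 5 CPM, and in several groups of low transcripts only the flagged pool did. That level is set for normally distributed values, so 13 of 45 is not compared with an expected share. STAR in spontaneous CC replicate 2 (315 CPM, next 10.2 CPM) and CYP11A1 in the same pool (156 CPM, next 53.5 CPM) came with the collagen transcripts described above. In small oocyte replicate 1, CYP11A1 was 7.38 CPM (next 2.61 CPM) and CYP17A1 6.57 CPM (next 0.130 CPM). CYP19A1 was 21.0 CPM in small CC replicate 4 (next 7.39 CPM), the pool with keratin transcripts, and 9.16 CPM in small oocyte replicate 4 (next 2.65 CPM).

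In large CC replicate 4 both FDX1 (84.1 CPM, next 52.0 CPM) and HSD3B (772 CPM, next 293 CPM) stood apart from the other large pools. FDX1 was 214 CPM in small oocyte replicate 6 (next 151 CPM), where FDXR was 5.34 CPM (next 0.491 CPM). FDXR was 6.80 CPM in spontaneous oocyte replicate 4, with the other 3 at 0. SCARB1 was 1279.5 CPM in large CC replicate 2 (next 417 CPM). STAR was 464 CPM in spontaneous oocyte replicate 2 (next 398 CPM), a gap that is narrow in relation to its level. The causes were not tested.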

How the results depend on the processing

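The number of members called was unchanged in 56 of 68 alternatives over the 6 comparisons, apart from those that left out 1 pool. In CC small vs spontaneous it went from 1 to 0 with no filter, median-of-ratios scaling, CPM without mitochondrially encoded genes, all classifications in 1 fit, and DESeq2. In CC large vs spontaneous it went from 1 to 0 with these and with a pseudocount of 0.1 and the replicate block. With edgeR the count of 1 stayed in both, but the gene called was STAR in place of SCARB1 and of CYP19A1. With 1 pool left out the counts ran from 0 to 1 in oocyte large vs spontaneous and CC small vs spontaneous, from 0 to 2 in CC large vs spontaneous, and from 0 to 1 for pairs of members. Adding the row named HSD3B, chosen after seeing the data, changed no count. List genes called ranged from 0 to 4 in CC small vs large (2 in the main test), 3 to 9 in CC small vs spontaneous (7), 2 to 8 in CC large vs spontaneous (6), and from 0 to at most 3 in the oocyte comparisons (0). Leaving out spontaneous replicate 1, 2 or 4 took the count to 4, 3 and 3 against small, and leaving out large replicate 1 or 6 or spontaneous replicate 4 or 5 took it to 3, 3, 2 and 3 against large follicles.

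Fold changes that changed sign were those of members that were not called, and the cause was not tested. With edgeR's quasi-likelihood test, its likelihood ratio test and DESeq2, FDXR in CC was -0.24, -0.23 and -0.24 from small to large (main 0.42), -0.30, -0.29 and -0.28 from small to spontaneous (0.54) and -0.053, -0.052 and -0.054 from large to spontaneous (0.12), CYP11A1 in CC was 0.18, 0.17 and 0.17 from small to large (-0.017), and FDX1 in oocytes was 0.0003, 0.0003 and 0.0086 from large to spontaneous (-0.0023). SCARB1 in CC was -0.044 from small to large without mitochondrially encoded genes (0.059).

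With 1 pool left out, HSD17B1 in oocytes ran from -0.26 to 0.51 (small to large), -0.46 to 0.87 (small to spontaneous) and -0.58 to 0.75 (large to spontaneous), and FDX1 in oocytes from -0.16 to 0.077 (large to spontaneous). In CC from small to large CYP11A1 ran from -0.24 to 0.24, FDXR from -0.020 to 0.86, SCARB1 from -0.31 to 0.28 and HSD3B from -0.061 to 0.66. In CC from large to spontaneous STAR ran from -0.024 to 1.49, FDX1 from -0.12 to 0.12 and FDXR from -0.12 to 0.45. HSD3B in oocytes (small to large, 1.57) was called at 2.11 without large replicate 3.

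For pools of the same number in different classifications the labels give nothing in common but the number. The correlation of their deviations from the group means was at most 0.22, and it was over 0.1 in at most 1 pair of any comparison. Such values cannot exclude a shared collection. Oocyte and CC pools, which the study took from the same complexes, were not paired here. With the replicate block, CYP19A1 from large to spontaneous CC was 1.45 and not called, FDXR was -0.051 and FDX1 in oocytes 0.019 in the same comparison, and the other members' calls stayed. Depth limits CYP17A1, FDXR and CYP19A1, which had few reads in most pools. It also limits STAR in CC, with 3 to 41 reads in small and 3 to 63 reads in large pools.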
